A study of Homo sapiens with 6 samples.

Results

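Transcript levels of the subline PC9-AMG were compared with those of its parental line PC9. The comparison covers 13992 genes of the 26485 in the tables, namely those that reached 1 TPM, the StringTie estimate of transcript share, in at least 2 of the 4 libraries of both lines. PC9 is an established human lung adenocarcinoma line that carries an activating EGFR mutation, and PC9-AMG is given in the labels as a cell line of its own. Both lines were grown in conventional culture with no treatment named, and each has 2 libraries. The meaning of AMG, the way the subline was derived, and its make-up as 1 clone or a pool, go unstated in the labels. The third line of the study, PC9-BrM4, also with 2 libraries from conventional culture, entered the fit and gives the side-by-side values below. The labels do not say that the replicates were separate cultures, so the p-values cover the spread of these libraries alone, which may be technical.

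Cancer cells that carry a mutant EGFR depend on signals from this receptor through ERK kinases, which induce AP-1 genes and feedback inhibitors. The integrated stress response is another programme of such cells, in which phosphorylation of the initiation factor eIF2 slows general translation and favours the transcription factor ATF4, whose targets include CHOP (DDIT3), amino acid transporters and serine synthesis enzymes. Long-cultured sublines can also differ in the copy number of whole chromosome arms, which these RNA data do not measure.

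The libraries held 2.66 to 4.39 aligned gigabases as estimated from the deposited coverage, and log2 levels correlated across genes, which are not independent replicates, at 0.994 within PC9, 0.996 within PC9-AMG and 0.970 between them. The median absolute difference between replicates on the log2(TPM + 1) scale was 0.0617 in PC9 and 0.0809 in PC9-AMG. Both lines had the transcripts of a simple epithelium, with KRT8 at 3721 and 3748 TPM in the PC9 libraries and 4615 and 4870.4 TPM in PC9-AMG, and EPCAM at 673 and 665 TPM against 680.2 and 667 TPM. The lung lineage factor NKX2-1, which marks many lung adenocarcinomas, had values of 0 and 0 TPM in PC9 and 0.0409 and 0 TPM in PC9-AMG, so this marker of the lung lineage was at or near 0 in both lines. Markers of leukocytes, fibroblasts, endothelium and glia are given near the end.

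Of the 13992 genes, 7878 (56.3%) passed limma's test at a Benjamini-Hochberg adjusted p of 0.05, with 3943 (28.2%) higher and 3935 (28.1%) lower in PC9-AMG. The shares of 28.2% and 28.1% are the background for every count of list members below. For 80.1% of the genes both libraries of one line lay above both of the other. A change of at least 2-fold was found for 397 genes that rose (2.84%) and 237 that fell (1.69%), and the median absolute log2 fold change over all genes was 0.257. Of the tested genes, 279 reached 1 TPM in both PC9-AMG libraries and in neither PC9 library, and 223 the reverse. Such genes passed the filter through 1 line only, so they could only come out higher in that line, also where they count in the lists below. Values are given for replicates 1 and 2, and where 2 pairs or means are set against each other PC9 stands first and PC9-AMG after it. Fold changes below are on the log2(TPM + 1) scale, on which changes of low genes come out too small, and in bulk RNA fewer cells with a transcript and less of it per cell cannot be told apart.

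The largest rise was that of OLR1, a scavenger receptor for oxidized lipoproteins, at 4.83 and 4.94 TPM in the PC9 libraries and 157 and 157 TPM in PC9-AMG. TMEM52B, a membrane protein gene (hg38, chromosome 12, 10170599 to 10191804, plus strand), overlaps the 5′ part of OLR1 on the other strand and stood at 0.618 and 0.691 TPM in PC9 and 18.4 and 18.5 TPM in PC9-AMG. The next tested gene beyond TMEM52B was GABARAPL1, an autophagy protein named here after its value was seen, which rose from 51.2 ± 1.01 to 178 ± 4.38 TPM (SD, n = 2). OLR1 changed by log2 4.75, TMEM52B by 3.55 and GABARAPL1 by 1.78 (limma adjusted p = 1.31e-07, 1.03e-06 and 1.54e-06). The median of the 10 Mb stretch that holds them, chromosome 12 from 10 to 20 Mb, was -0.11, and they lie at its start. Because the strand setting of the counting is not given, reads of TMEM52B and OLR1 cannot be told apart where they overlap.

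Several secreted products rose from near 0. NPPB, the precursor of B-type natriuretic peptide, had 0 and 0.1 TPM in PC9 against 12.9 and 16.2 TPM in PC9-AMG. KISS1, the precursor of the kisspeptins and known as a metastasis suppressor gene, was at 2.84 and 1.65 TPM in PC9 and 26 and 29.4 TPM in PC9-AMG, a log2 fold change of 3.17 ± 0.188 (standard error, limma adjusted p = 1.65e-05). C4BPB, a chain of the complement inhibitor C4b-binding protein (chromosome 1, 207088842 to 207099992), was at 1.41 and 2.06 TPM in PC9 and 26.6 and 33.1 TPM in PC9-AMG. In none of these did the lines overlap, which the rule for the largest rises required. The replicates of PC9 differed for KISS1 by more than those of PC9-AMG in relative terms. APOE, the apolipoprotein that carries cholesterol out of cells (chromosome 19, 44905749 to 44909395), rose from 3.91 and 3.39 to 38.7 and 40.1 TPM (log2 3.12, limma adjusted p = 1.69e-06). CPVL, a serine carboxypeptidase, rose from 1.55 and 1.61 to 15 and 18.1 TPM. PSG5, a pregnancy-specific glycoprotein with close relatives beside it, was at 0.424 and 0.365 TPM in PC9 and 10.6 and 11.3 TPM in PC9-AMG.

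**Figure D1:**
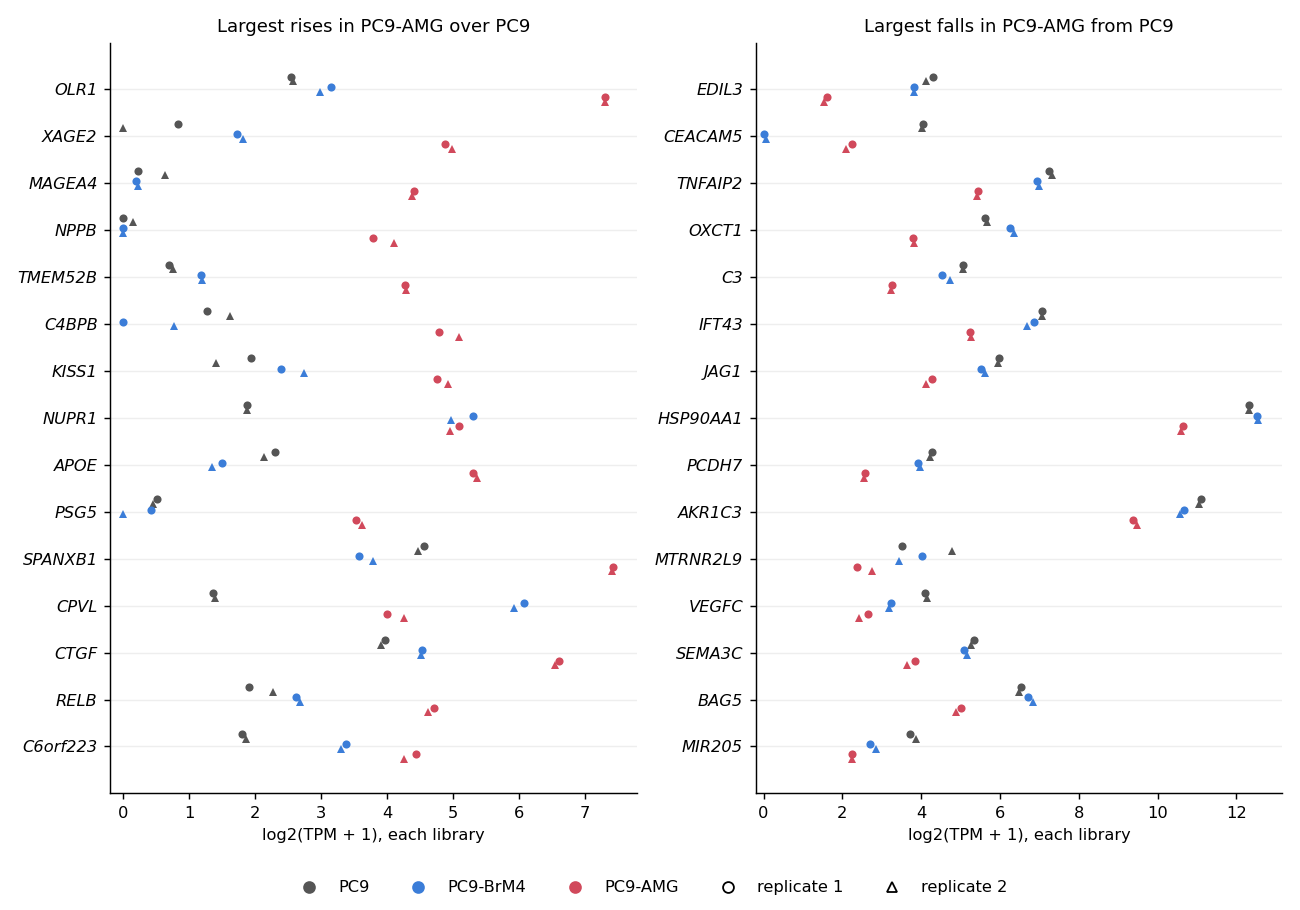
Levels of the 15 genes with the largest rises (left) and the 15 with the largest falls (right) in PC9-AMG against PC9, as log2(TPM + 1) in each library. Grey marks PC9, blue PC9-BrM4 and red PC9-AMG, circles replicate 1 and triangles replicate 2. The red and grey symbols do not overlap for any of the 30 genes, which the choice of genes required.

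The largest falls included some of the most abundant transcripts of the line. HSP90AA1, the stress-inducible cytosolic chaperone HSP90 alpha (chromosome 14, 102080738 to 102139749), was at 5089 and 5104 TPM in PC9 and 1585 and 1539 TPM in PC9-AMG, a log2 fold change of -1.71 ± 0.04 (limma adjusted p = 1e-06). Its constitutive relative HSP90AB1 stood at 1739.6 and 1708 TPM against 1794 and 1828 TPM and did not pass. BAG5, a co-chaperone of HSP70 (chromosome 14, 103556544 to 103562814), fell from 91.6 and 87.7 to 31.3 and 28.5 TPM. HSP90AA1, BAG5 and TNFAIP2 lay in 1 unbroken run of 27 tested genes along chromosome 14 that were all below 0, of which 20 were called, with a median of -1.04. The same 27 genes had a median of 0.26 in PC9-BrM4 against PC9.

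Among the other large falls, EDIL3, a matrix protein that binds integrins, went from 18.7 and 16.5 to 2.03 and 1.91 TPM, and OXCT1, which opens ketone body breakdown, from 48.4 and 49.6 to 12.9 and 13.2 TPM. JAG1, a Notch ligand (chromosome 20, 10637684 to 10674046), fell from 61.9 and 60.6 to 18.5 and 16.4 TPM (log2 -1.76, limma adjusted p = 3.34e-06). PCDH7, a protocadherin (chromosome 4, 30720408 to 31146801), fell from 18.4 and 17.5 to 4.96 and 4.85 TPM (log2 -1.68, limma adjusted p = 4.61e-06). The values of the PC9-AMG libraries lay below both PC9 libraries for each of these genes, which the rule for the largest falls required. VEGFC, a lymphatic growth factor (chromosome 4, 176683534 to 176792745), fell from 16.3 ± 0.461 to 4.79 ± 0.623 TPM (SD, n = 2), and SEMA3C, a secreted semaphorin, from 38.7 ± 1.46 to 12.5 ± 1.34 TPM. JAG1 lay in a run of 25 genes below 0 with a median of -0.50, VEGFC in a run of 12 with -0.38, and EDIL3 in a run of 21 with -0.39. OXCT1 lay in such a run of 11 genes with -0.62, and SEMA3C in a run of 8 with -0.52. The 10 Mb stretch that holds PCDH7 had a median of -0.10. The complement component C3 had a log2 fold change of -1.83 in a stretch with a median above 0, at 0.27. MTRNR2L9, a nuclear copy of mitochondrial sequence with several relatives, was at 10.4 and 26.5 TPM in PC9 and 4.2 and 5.69 TPM in PC9-AMG, so its PC9 libraries differed widely, and it was not called without PC9-AMG replicate 1. The microRNA line MIR205 overlaps its host transcript MIR205HG on the same strand, and its fall from 12.2 and 13.6 to 3.71 and 3.77 TPM cannot be assigned to the microRNA.

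Targets of ATF4 and CHOP, taken with the factors and kinases of the pathway, mostly rose. The list's 22 members split into 17 that rose, 1 (JDP2) that fell and 4 not called, with a median log2 fold change of 0.77 against -0.0054 over all genes, where 28.2% of all genes rose. The eIF2 kinases EIF2AK4 and EIF2AK1, which start the response, did not pass, at 40.1 ± 0.117 against 43.5 ± 0.603 TPM and 179 ± 2.02 against 182 ± 0.701 TPM, and ATF4 itself rose from 489 ± 6.05 to 611 ± 18.7 TPM (SD, n = 2). NUPR1, a small stress-induced chromatin protein, had the largest rise of the list, at 2.68 and 2.68 TPM in PC9 and 33.1 and 29.9 TPM in PC9-AMG (log2 3.14, limma adjusted p = 2.53e-06). GDF15, a stress hormone of the TGF-beta family, was at 5.92 and 6.86 TPM against 28.8 and 23.5 TPM, and PPP1R15A, the eIF2 phosphatase subunit that ends the response, at 34.7 and 32.7 TPM against 121 and 103 TPM. SESN2, an inhibitor of mTORC1 activation, was at 15.8 and 14.8 TPM against 44.2 and 36.1 TPM, TRIB3, a pseudokinase induced by CHOP, at 99.9 and 105 TPM against 239 and 197 TPM, and DDIT3 at 42.5 and 44.8 TPM against 96.9 and 77.3 TPM. In each of these the PC9-AMG libraries lay above the PC9 libraries, with replicate 1 of PC9-AMG differing from replicate 2 by more than the PC9 replicates differed. DDIT4, an mTORC1 inhibitor that ATF4 also induces, did not pass at 242 and 259 TPM against 285 and 258 TPM.

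Between the PC9-AMG replicates the members of this list had a median absolute log2 difference of 0.194 against 0.0809 over all genes and 0.0439 between the PC9 replicates. Leaving out any 1 of the 4 libraries gave 15 to 19 members called higher. The list's median in PC9-BrM4 against PC9 was 0.059, and 18 of the 22 members were higher in PC9-AMG than in PC9-BrM4 by limma's test of that difference, for which 56.1% of all genes passed in either direction.

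ATF3, a stress-induced repressor of the ATF family, rose from 6.94 and 6.9 to 37.9 and 31.4 TPM, and CHAC1, which degrades glutathione, from 11 and 11.4 to 37 and 28.2 TPM. Both RefSeq promoters hold the core of the composite element that ATF4 and C/EBP proteins bind, TGATGNAA on either strand. They were chosen among members of the list that were called higher and held this core. A rise together with a match was thus fixed by the choice. The sequences below are 120 bases of build GRCh38.p14, 5′ to 3′ on the gene's strand, with the match in capitals, read on the opposite strand in CHAC1.
ATF3, chr1:212565160-212565279, plus strand: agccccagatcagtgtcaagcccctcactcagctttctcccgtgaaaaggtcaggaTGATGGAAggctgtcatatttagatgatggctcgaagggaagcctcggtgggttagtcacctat
CHAC1, chr15:40953221-40953340, plus strand: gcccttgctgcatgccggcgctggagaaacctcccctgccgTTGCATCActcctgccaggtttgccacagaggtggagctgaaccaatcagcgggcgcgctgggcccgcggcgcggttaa
The core lay 191 bases before the start of ATF3 and 209 bases before that of CHAC1. Windows of the 250 bases before the start were searched. The core occurred in 3.19% of 27305 RefSeq promoters and 1.31% of those of 10633 tested genes that matched by symbol. It occurred in 3.06% of the 294 matched genes that rose at least 2-fold and 2.44% of the 164 that fell at least 2-fold. Of the 19 matched members of the ATF4 and CHOP list, 3 held it. A match is a run of letters and not a site shown to be bound.

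**Figure D2:**
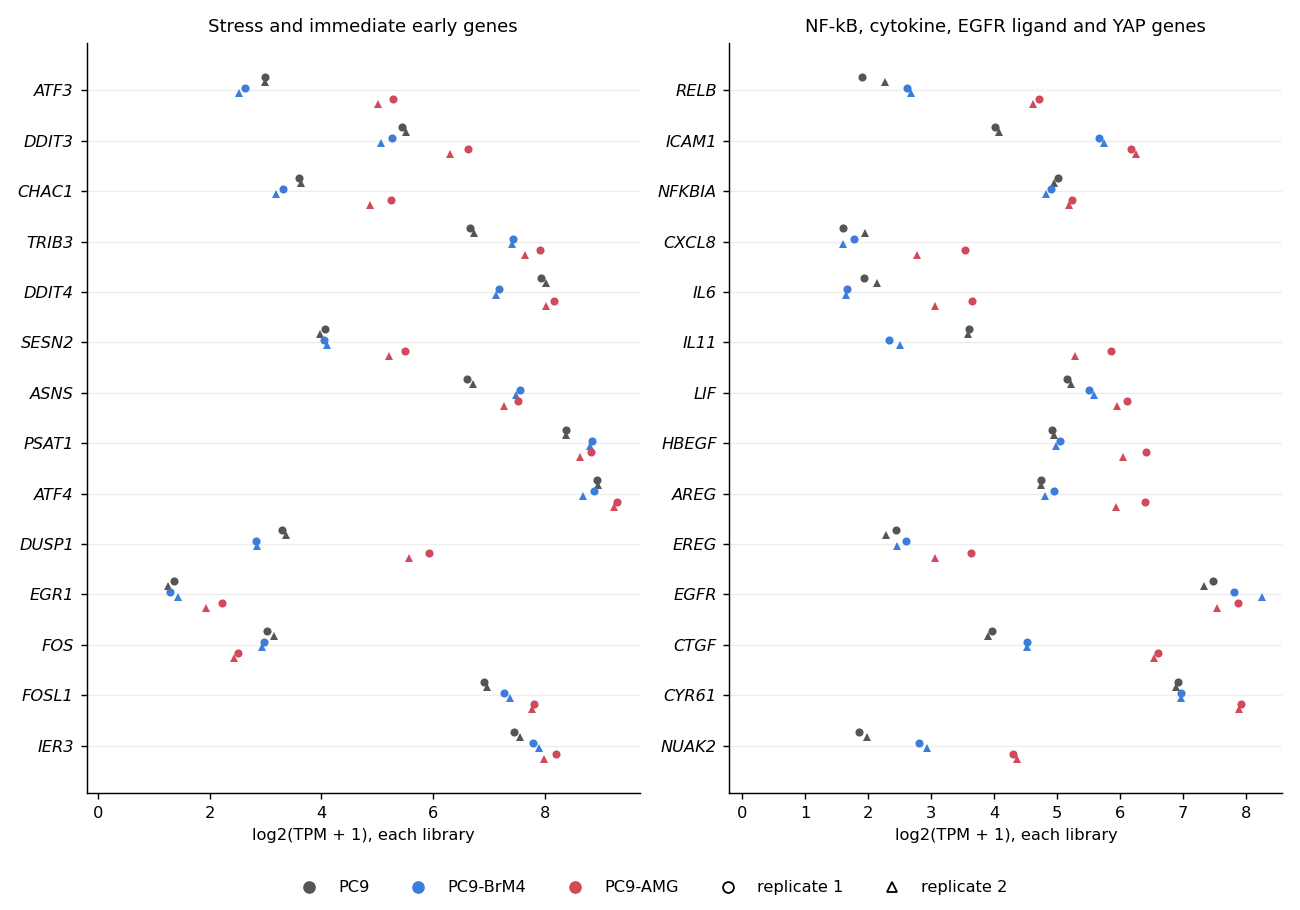
Levels of 14 stress and immediate early genes (left) and 14 NF-kB, cytokine, EGFR ligand and YAP genes (right), as log2(TPM + 1) in each library. Colours and symbols are PC9 grey, PC9-BrM4 blue, PC9-AMG red, replicate 1 circles and replicate 2 triangles. ATF3, DUSP1, RELB and CTGF stand apart in PC9-AMG, while the DDIT4 symbols of PC9 and PC9-AMG lie close together.

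Most genes that supply amino acids rose. The list of 27 had 20 rises, 3 falls and 4 genes not called (median 0.52). CTH and CBS, the enzymes that make cysteine from homocysteine, rose from 31.8 and 30.2 to 71.7 and 57.3 TPM and from 40.5 and 43.1 to 95.3 and 90.7 TPM. The glycine transporter SLC6A9 rose from 30.4 ± 1.5 to 68.1 ± 3.79 TPM and the glutamine carrier SLC1A5 from 185 ± 3.13 to 345 ± 5.44 TPM (SD, n = 2). ASNS, asparagine synthetase and a standard readout of ATF4, was at 96.8 and 104 TPM in PC9 and 183 and 152 TPM in PC9-AMG (log2 0.73, limma adjusted p = 0.000275). The cystine carrier SLC7A11, also an ATF4 target, did not pass at 160.4 and 151 TPM against 202 and 158 TPM. The 3 members that fell were PSPH, of serine synthesis, and the folate enzymes SHMT1 and MTHFD1. MTHFD1 fell from 203 ± 5.53 to 156 ± 6.19 TPM. In PC9-BrM4 the list had a median of 0.21 against PC9.

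Transfer RNA synthetases, which charge the amino acids, were divided. Of the 20 cytosolic members 10 rose and 5 fell, against 28.2% and 28.1% of all genes. GARS, for glycine, rose from 223 ± 5.24 to 383 ± 39.2 TPM and VARS, for valine, from 71.8 ± 1.3 to 121 ± 0.895 TPM, while KARS, for lysine, fell from 255 ± 0.903 to 178 ± 6.34 TPM (SD, n = 2). KARS lies on chromosome 16 in a 10 Mb stretch with a median of -0.42, and with that median removed it did not pass (limma adjusted p = 0.105). With the median of each stretch removed, 1 of the synthetases was called lower and 12 higher.

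Most chaperones and sensors of the endoplasmic reticulum rose, each by under 2-fold on the log2(TPM + 1) scale. 18 of 29 members rose and 0 fell, with a median of 0.31. DNAJB9, a co-chaperone that restrains the sensor IRE1, was at 28.1 and 27.4 TPM against 57.7 and 44.8 TPM, and HYOU1, a large chaperone, at 113 and 113 TPM against 189 and 173 TPM. HSPA5 (BiP), the main chaperone of the compartment, rose from 696 ± 2.09 to 959 ± 89.1 TPM (SD, n = 2). The replicates of PC9-AMG differed for DNAJB9 and lay above both PC9 libraries all the same. XBP1, a transcription factor of the response, rose from 63.5 ± 1.35 to 81.3 ± 12.9 TPM, a call lost without PC9 replicate 1, PC9 replicate 2 or PC9-AMG replicate 1, and the sensor ATF6 did not pass at 19.8 ± 1.74 against 19.1 ± 1.95 TPM. The list's members differed between the PC9-AMG replicates by a median of 0.162, and without 1 library the count called higher was 14 to 19, and 2 were called lower without PC9-AMG replicate 1.

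Cytosolic heat shock proteins moved apart. The small heat shock proteins HSPB1 and HSPB8, which hold unfolded proteins, rose from 230.3 and 236 to 692 and 767 TPM and from 13.1 and 12.4 to 47.5 and 44.8 TPM. Their log2 fold changes were 1.64 and 1.78 (limma adjusted p = 2.13e-06 and 3.34e-06). The inducible HSP70 genes HSPA1A and HSPA1B, near-identical copies, did not pass, at 430.3 ± 11.5 against 437 ± 25.5 TPM and 365 ± 12.8 against 379.6 ± 22.2 TPM. HSPH1, an HSP110 family member, fell from 191 ± 3.5 to 144 ± 3.9 TPM (SD, n = 2). HSPH1 lies on chromosome 13 in a stretch with a median of -0.43, and with that median removed its value turned to 0.028 (limma adjusted p = 0.677). Of 18 members 7 rose and 3 fell, against 28.2% and 28.1% of all genes, with 1 called lower once the regional median was removed.

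Most immediate early genes rose, and FOS fell. Of 24 tested members 17 rose and 2, FOS and KLF10, fell (median 0.59). DUSP1, a phosphatase of stress kinases, was at 8.87 and 9.34 TPM in PC9 and 59.9 and 46.3 TPM in PC9-AMG, and the orphan receptor NR4A1 at 1.15 and 1.55 TPM against 8.2 and 7.28 TPM. JUN, the main AP-1 subunit, rose from 62.1 and 62.5 to 142 and 126 TPM (log2 1.09, limma adjusted p = 5.95e-05) and FOSL1, its usual partner in carcinoma cells, from 118 and 123 to 222 and 216 TPM. FOS fell from 7.14 and 7.84 to 4.66 and 4.4 TPM (log2 -0.62, limma adjusted p = 0.000817). JUN and FOSL1 were thus higher and FOS lower in the same libraries. FOS lies in the lower stretch of chromosome 14, and with the median of that stretch removed its value was 0.28. Without PC9 replicate 1, PC9 replicate 2 or PC9-AMG replicate 2 only 1 member was called lower. This list also differed more between the PC9-AMG replicates (0.128) than between the PC9 replicates (0.0444).

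Genes that ERK induces, among them its feedback inhibitors, rose more often than they fell. Of 23 members 14 rose and 5 fell, where 28.2% and 28.1% of all genes did, and 3 were called lower with the regional median removed. DUSP5, a nuclear ERK phosphatase, rose from 23.4 and 23.8 to 65.9 and 58.6 TPM, and DUSP8 from 0.798 and 0.967 to 4.51 and 3.69 TPM. The cytosolic ERK phosphatase DUSP6, often used as the readout of ERK output, fell from 17.4 and 17.5 to 13.5 and 10.4 TPM (log2 -0.51, limma adjusted p = 0.00542), a call lost with the regional median removed (limma adjusted p = 0.114). SPRY1 and the ETS factor ETV1 fell from 9.56 ± 0.979 to 4.89 ± 0.0135 TPM and, in this order, from 3.73 ± 0.169 to 1.42 ± 0.186 TPM, while SPRY2 and SPRY4 did not pass at 22.9 ± 0.182 against 22 ± 0.277 TPM and 12.2 ± 0.542 against 12.7 ± 1.39 TPM (SD, n = 2). MYC rose from 79.7 ± 5.18 to 116 ± 3.58 TPM.

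EGFR, the driver of this line, did not pass, at 178 and 159.5 TPM in PC9 and 234 and 185 TPM in PC9-AMG (log2 0.30 ± 0.15, limma adjusted p = 0.12). The replicates of PC9-AMG lay further apart than those of PC9. Of its ligands 5 rose. AREG was at 25.8 and 25.7 TPM in PC9 and 83.1 and 60.4 TPM in PC9-AMG, HBEGF at 29.3 and 30.1 TPM against 84.7 and 65 TPM, and EREG at 4.47 and 3.88 TPM against 11.4 and 7.32 TPM. EPGN and TGFA rose as well, from 6.99 ± 0.0934 to 14.3 ± 2.69 TPM and from 53.6 ± 0.448 to 78 ± 9.01 TPM (SD, n = 2), while EGF and BTC did not pass at 8.54 ± 0.598 against 7.56 ± 0.624 TPM and 5.49 ± 0.524 against 6.21 ± 1.5 TPM. NRG1 and NRG4, ligands of the ERBB3 and ERBB4 receptors, fell from 2.91 ± 0.391 to 1.4 ± 0.262 TPM and, in this order, from 6.23 ± 0.0409 to 2.29 ± 0.122 TPM. ERBB2, the common partner, fell from 46.8 ± 0.00253 to 37.1 ± 1.44 TPM, and ERBB3 rose from 45.7 ± 1.8 to 55.3 ± 1.3 TPM. Members of this list differed between the PC9-AMG replicates by a median of 0.225, the value for all genes being 0.0809, and the count of 9 called higher became 8 or 9 without 1 library.

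Among other receptor kinases, AXL, whose rise is known from EGFR inhibitor resistance, went from 185 and 189 to 260.0 and 254 TPM and MET from 208 and 196 to 239 and 221 TPM. The log2 fold changes of 0.46 and 0.19 passed limma's test (adjusted p = 0.00014 and 0.0332) and the call of MET was lost without PC9 replicate 2 or without PC9-AMG replicate 1. AXL lies on chromosome 19 in a stretch with a median of 0.42, and with that median removed its value was 0.031 (limma adjusted p = 0.608). The apoptotic cell receptor MERTK rose from 1.61 ± 0.0222 to 4.86 ± 0.197 TPM and FGFR4 from 4.35 ± 0.584 to 10.6 ± 0.175 TPM (SD, n = 2). The ephrin ligands EFNB1 and EFNB2 fell, EFNB1 from 36.6 and 36.4 to 11.5 and 12.1 TPM and EFNB2 from 66.9 and 66.6 to 34.1 and 30.3 TPM. Of 29 members of the list 14 rose and 9 fell, against 28.2% and 28.1% of all genes.

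Of 25 tested NF-kB subunits, inhibitors and regulators 15 rose, 3 fell and 7 were not called (median 0.23). RELB, the transcription factor of the noncanonical branch (chromosome 19, 45001449 to 45038198), was at 2.76 and 3.83 TPM in PC9 and 25.1 and 23.6 TPM in PC9-AMG, and its partner NFKB2 at 16.1 and 15.6 TPM against 46.4 and 45.1 TPM. The inhibitor NFKBIE was at 8.36 and 7.77 TPM against 23 and 25.7 TPM, and the ubiquitin ligase BIRC3 at 5.02 and 5.04 TPM against 15.3 and 12.2 TPM. Each of the 4 was higher in both PC9-AMG libraries than in either PC9 library. RELA and NFKB1, the canonical subunits, rose from 70.6 ± 1.93 to 89.9 ± 0.0169 TPM and from 20.4 ± 0.354 to 23.9 ± 0.418 TPM (SD, n = 2), and NFKB1 was not called without any 1 of the PC9 and PC9-AMG libraries (limma adjusted p = 0.0642 to 0.123). TRAF3, MAP3K14 (NIK) and MAP3K8 fell, TRAF3 from 21 and 20.7 to 15.8 and 15.1 TPM and MAP3K14 from 39.5 and 39.2 to 31 and 34 TPM, which did not pass with the regional median removed (limma adjusted p = 0.145). TRAF3 is known as the adaptor through which NIK is degraded, and it lies at the far end of chromosome 14 in the same run of 27 genes as HSP90AA1. RELB lies in a run of 22 genes above 0 on chromosome 19 with a median of 0.60, which it exceeds at 2.57.

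Secreted cytokines rose in most cases. The list of 17 had 11 rises, 3 falls and 3 genes not called, and 7 rose at least 2-fold (median 0.85). IL11, a cytokine of the IL6 family, was at 11.1 and 11.1 TPM in PC9 and 57.2 and 37.9 TPM in PC9-AMG, and IL23A, a subunit of IL23, at 6.12 and 6.49 TPM against 19.2 and 18.3 TPM. LIF, of the same family as IL11, rose from 35.6 ± 1.07 to 64.9 ± 5.07 TPM and CXCL16, a membrane chemokine, from 38.2 ± 1.09 to 98.9 ± 1.9 TPM (SD, n = 2). IL1B, an inflammatory cytokine, fell from 2.02 ± 0.0488 to 0.947 ± 0.0014 TPM, and TNFSF10 (TRAIL), a death ligand, from 10.1 and 9.92 TPM in PC9 to 4.24 and 4.89 TPM in PC9-AMG. The list's members differed between the PC9-AMG replicates by a median of 0.157.

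ICAM1, the leukocyte adhesion molecule, rose from 15.2 and 15.9 to 71 and 75.1 TPM (log2 2.16), CXCL8, a neutrophil chemokine, from 2.05 and 2.89 to 10.6 and 5.85 TPM (log2 1.37), and IL6 from 2.84 and 3.42 to 11.6 and 7.41 TPM (log2 1.32). Each is a textbook NF-kB target, but their promoters were chosen by the size of the rise in these data. The choice was among called genes of the NF-kB, cytokine and leukocyte adhesion lists that held a match to GGANTTTCC, on either strand. A rise together with a match was thus fixed by the choice. The sequences are 120 bases of GRCh38.p14 on the gene's strand with the match in capitals, read on the opposite strand in ICAM1.
ICAM1, chr19:10270878-10270997, plus strand: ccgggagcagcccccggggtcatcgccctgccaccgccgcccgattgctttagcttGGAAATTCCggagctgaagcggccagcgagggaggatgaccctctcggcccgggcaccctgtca
CXCL8, chr4:73740422-73740541, plus strand: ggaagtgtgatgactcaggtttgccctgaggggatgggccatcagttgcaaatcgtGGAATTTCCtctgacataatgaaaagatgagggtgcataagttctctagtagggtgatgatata
IL6, chr7:22727072-22727191, plus strand: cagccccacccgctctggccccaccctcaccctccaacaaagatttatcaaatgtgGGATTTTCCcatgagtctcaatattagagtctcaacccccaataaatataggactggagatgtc
The matches lay 186, 91 and 72 bases before the RefSeq starts. The gene model of ICAM1 in the deposited data starts at 10270841, ahead of the printed stretch. The ICAM1 match thus lies within that model and not before it. This motif was found in 1.47% of all promoters, 1.46% of those of tested genes, 4.42% of those that rose at least 2-fold (13 of 294) and 3.05% of those that fell at least 2-fold. For TGANTCA, the AP-1 site, the shares were 6.60%, 3.99%, 9.18% and 1.83% in the same order, and for GGAATG, the TEAD site, 11.9%, 9.56%, 15.6% and 7.32%. These shares are descriptions on both strands of the same windows, with no test.

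Receptors on the same pathways went both ways. TLR4, the receptor for lipopolysaccharide, was at 3.88 and 3.87 TPM in PC9 and 0.237 and 0.19 TPM in PC9-AMG (log2 -2.01, limma adjusted p = 6.69e-06), while TLR2, which senses bacterial lipoproteins, rose from 1.76 ± 0.198 to 3.65 ± 0.0966 TPM (SD, n = 2). The death receptors TNFRSF10A and TNFRSF10B rose from 17.6 ± 0.433 to 34.5 ± 2.2 TPM and from 32.3 ± 0.121 to 55.9 ± 5.12 TPM, against the fall of their ligand TNFSF10. IL6R, the IL6 receptor chain, rose from 1.36 ± 0.136 to 3.77 ± 0.784 TPM. Of 37 members of the receptor and adhesion list 17 rose and 9 fell, against 28.2% and 28.1% of all genes. Fewer fell without PC9 replicate 1.

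Complement components fell while a shield against complement rose. C3, the central component, stood at 32.5 and 32.5 TPM in PC9 and 8.51 and 8.37 TPM in PC9-AMG, and C5, which starts the membrane attack complex, fell from 12 ± 0.348 to 4.16 ± 0.0335 TPM (SD, n = 2). CD55, which speeds the decay of the C3 convertase on cell surfaces, rose from 35.4 and 34.1 to 82.2 and 71 TPM (log2 1.12, limma adjusted p = 3.03e-05). SERPING1, the C1 inhibitor, was at 0.125 and 0 TPM in PC9 and 1.15 and 1.53 TPM in PC9-AMG. It passed the filter only through its PC9-AMG libraries, so only a rise was possible. Of 15 members 5 rose and 9 fell, a median of -0.30, where 28.2% of all genes rose and 28.1% fell.

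Genes that interferons induce, and those of class I antigen presentation, rose more often than they fell. 16 of 39 interferon-stimulated genes rose and 3 fell, against 28.2% and 28.1% of all genes. IFI6, a mitochondrial interferon-induced protein, was at 6.31 and 4.61 TPM against 15.5 and 15.2 TPM, and ISG15, a ubiquitin-like modifier, at 26 and 24.3 TPM against 47.8 and 42.4 TPM. Of 22 MHC class I members 13 rose and 3 fell, with 1 called lower without PC9 replicate 1. HLA-B rose from 60.6 and 57.7 to 121 and 120.3 TPM, HLA-C from 248 and 237 to 468 and 452 TPM, and the peptide transporter TAP1 from 14.2 and 14 to 29.1 and 30.7 TPM. B2M, the light chain that all class I chains need, did not pass at 978 and 1010.4 TPM against 1002 and 984 TPM. The HLA genes are near-identical copies, so how reads were split among them is uncertain.

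Among the factors and targets of YAP and TEAD, 17 of 32 rose, 4 fell and 11 were not called (median 0.26), where 28.2% of all genes rose and 28.1% fell. CTGF (CCN2), a secreted matricellular protein, was at 14.7 and 14 TPM in PC9 and 96.5 and 92.3 TPM in PC9-AMG, and CYR61 (CCN1), its relative, at 120.3 and 117 TPM against 243 and 237 TPM. ANKRD1, a nuclear ankyrin protein, was at 20.5 and 20.4 TPM against 67.7 and 70.3 TPM and the kinase NUAK2 at 2.64 and 2.94 TPM against 18.8 and 19.6 TPM. No PC9-AMG library overlapped a PC9 library for these 4 genes. The coactivator YAP1 fell from 89.9 and 83.9 to 71.2 and 66.6 TPM (log2 -0.33, limma adjusted p = 0.00206), its relative WWTR1 (TAZ) did not pass at 60.6 ± 2.8 against 53.2 ± 5.4 TPM, and TEAD4 rose from 54.1 ± 0.206 to 87.3 ± 6.57 TPM (SD, n = 2). IGFBP3, which binds insulin-like growth factors, fell from 403 and 395 to 208 and 230.5 TPM.

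**Figure D3:**
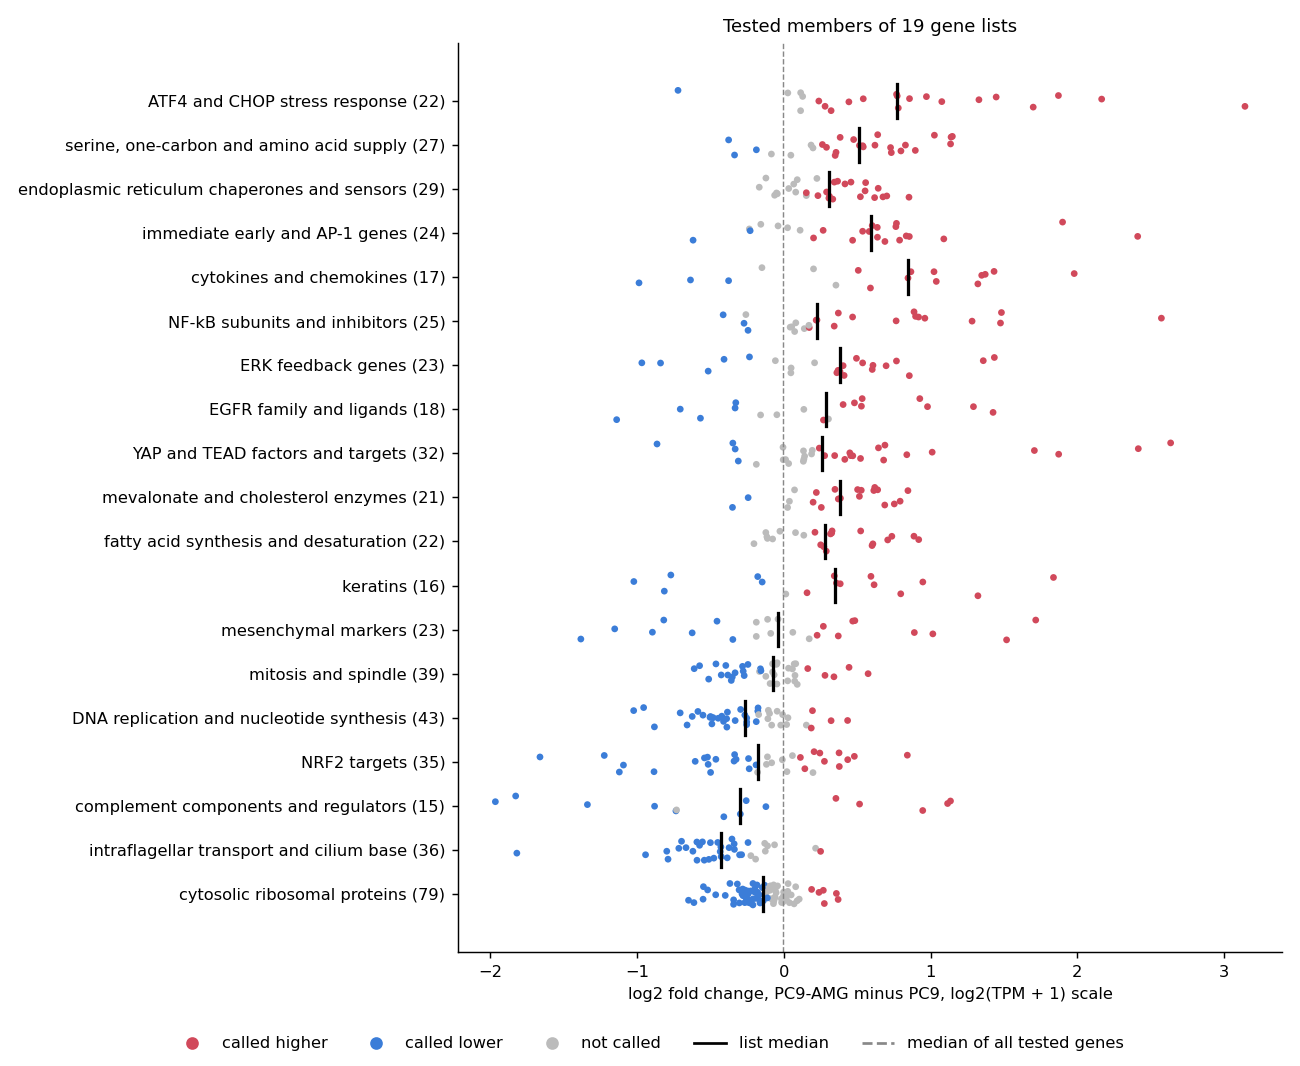
Log2 fold change of PC9-AMG against PC9 for each tested member of 19 gene lists, with red for genes called higher, blue for called lower and grey for not called. Black bars mark list medians and the dashed line the median of all tested genes, and the number of members is in brackets. The ATF4 and CHOP list has its median at 0.77 and the intraflagellar transport list at -0.43.

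Most enzymes of cholesterol synthesis rose. The list of 21 had 16 rises, 2 falls and 3 genes not called (median 0.39). The sterol reductase TM7SF2 rose from 36.6 and 36 to 66.8 and 65.5 TPM. HMGCS1 and MVK did not pass at 228 ± 3.81 against 235 ± 27 TPM and 78.6 ± 5.53 against 82.7 ± 0.662 TPM (SD, n = 2). The isomerase IDI1 fell from 311 and 316 to 282 and 248 TPM. IDI1 lies on chromosome 10 in a stretch with a median of -0.34, against its own log2 fold change of -0.24, which turned to 0.096 with that median removed (limma adjusted p = 0.223), and its call was lost without PC9 replicate 2 (adjusted p = 0.0529). In PC9-BrM4 the same list had a median of -0.41 against PC9, and 19 of the 21 enzymes were higher in PC9-AMG than in PC9-BrM4 by limma's test.

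Of 22 listed genes of SREBP control, sterol uptake and sterol efflux 13 rose and 6 fell (median 0.26). The cholesterol exporter ABCA1 fell from 9.5 and 8.81 to 3.58 and 2.85 TPM (log2 -1.27, limma adjusted p = 6.86e-05), and the oxysterol receptor NR1H3 (LXR alpha) from 44.8 ± 2.49 to 26.5 ± 1.74 TPM (SD, n = 2). NPC1 and NPC2 act together to release cholesterol from lysosomes. NPC1 rose from 26.9 and 29.4 to 45.1 and 41.2 TPM, and NPC2 fell from 1334 and 1395 to 453 and 493 TPM. NPC2 lies on chromosome 14 in an unbroken run of 33 genes below 0 with a median of -0.92. The regulators SREBF1 and SREBF2 did not pass, at 102 ± 3.71 against 97.9 ± 0.00347 TPM and 149 ± 0.141 against 158 ± 9.95 TPM.

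In fatty acid synthesis 14 of 22 genes rose and 0 fell, with 2 called lower without PC9-AMG replicate 1. FASN, the fatty acid synthase, was at 294 and 297 TPM against 565 and 529 TPM, FADS2, the delta-6 desaturase, at 399.8 and 419 TPM against 673 and 665 TPM, and ELOVL1, an elongase of saturated chains, at 231 and 237 TPM against 392 and 388 TPM. FASN and ELOVL1 lie in stretches with medians of 0.45 and 0.43, against their own log2 fold changes of 0.89 and 0.74. ACACA, which makes malonyl-CoA for FASN, did not pass at 48.7 and 46.6 TPM against 47.5 and 40.2 TPM. Enzymes of fatty acid and ketone body breakdown showed 5 rises and 10 falls among 24. ACOX2 and DECR1, of peroxisomal and mitochondrial oxidation, fell from 6.54 ± 0.0225 to 2.99 ± 0.0205 TPM and, in this order, from 69.2 ± 0.637 to 37.5 ± 0.437 TPM (SD, n = 2), and the nuclear receptor PPARD rose from 21.2 ± 0.105 to 43.7 ± 2.62 TPM. The PC9 and PC9-AMG libraries did not overlap for FASN, FADS2, ELOVL1 or PPARD.

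Among NRF2 targets, which defend against oxidants, 10 of 35 rose and 17 fell (median -0.18), where 28.2% of all genes rose and 28.1% fell. The rises are near that share. The aldo-keto reductase AKR1C3 (chromosome 10, 5048766 to 5107686) was at 2204 and 2132 TPM in PC9 and 665 and 706 TPM in PC9-AMG. Its neighbours AKR1C1 and AKR1C2, close in sequence so that shared reads are uncertain, fell from 1526 ± 63.4 to 701 ± 8.68 TPM and, in this order, from 670.1 ± 3.52 to 314 ± 6.88 TPM (SD, n = 2). This cluster lies at the start of chromosome 10, in a stretch with a median of -0.34. AKR1B10, on chromosome 7, fell from 516 and 478 to 261 and 277 TPM, and NQO1, a quinone reductase, from 607 and 608 to 428 and 431 TPM. HMOX1, which degrades heme, rose from 35.1 and 39.7 to 68.2 and 67.2 TPM and TXNRD1, thioredoxin reductase, from 1151 and 1119 to 1624 and 1545 TPM. NFE2L2, which encodes NRF2, did not pass at 173 ± 1.47 against 176 ± 11.6 TPM. ALDH3A1, an aldehyde dehydrogenase, fell from 941 and 922 to 409 and 389 TPM, while ALDH2 rose from 38.9 ± 3.29 to 67.2 ± 1.03 TPM. In the aldehyde dehydrogenase and tryptophan list 6 of 21 members rose, near the 28.2% of all genes, and 10 fell.

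Cell surface genes of the epithelium rose more often than they fell. Of 34 epithelial members 19 rose and 6 fell, with 2 called lower without either PC9 replicate 1 or PC9 replicate 2 and 3 without PC9-AMG replicate 2. CLDN3, a tight junction claudin, was at 9.23 and 7.98 TPM in PC9 and 32.5 and 32.9 TPM in PC9-AMG, CLDN1 at 43.2 and 43.4 TPM against 110.2 and 86.2 TPM, and occludin (OCLN) at 12.6 and 12.1 TPM against 32.2 and 27.2 TPM. CDH1, which encodes E-cadherin, rose from 80.6 and 78.9 to 98.8 and 93.8 TPM (log2 0.27, limma adjusted p = 0.00461). VIM, the mesenchymal filament vimentin, fell from 33.9 and 34 to 13.3 and 11.6 TPM (log2 -1.38, limma adjusted p = 1.29e-05). VIM lies on chromosome 10 in a run of 12 genes that were all lower and all called, with a median of -0.65. Of 23 mesenchymal genes 9 rose and 7 fell, where 28.2% of all genes rose and 28.1% fell. The mesenchymal falls are near that share. SNAI2, a repressor of E-cadherin, fell from 17.3 ± 0.644 to 7.23 ± 0.142 TPM (SD, n = 2), and its relative SNAI1 rose from 2.1 ± 0.23 to 3.3 ± 0.345 TPM, a call lost without PC9 replicate 2 or PC9-AMG replicate 2. The contractile genes MYL9 and TPM1 rose from 4.38 ± 0.443 to 16.7 ± 1.6 TPM and from 179 ± 1.52 to 364 ± 29.2 TPM (SD, n = 2).

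Keratins of stressed or basal epithelium did not move as a set. KRT17 rose from 20.8 and 20.2 to 76.5 and 75.1 TPM and KRT16 from 29.9 and 28.1 to 56.3 and 57.3 TPM, while KRT6A fell from 141 and 148 to 74.1 and 67.2 TPM and KRT15 from 29.6 and 32.5 to 16.8 and 17.7 TPM. KRT6A, KRT16 and KRT17 have close copies, so their values are uncertain. Of 16 keratins 10 rose and 5 fell, against 28.2% and 28.1% of all genes. The basal cell factor TP63 fell from 2.97 ± 0.0659 to 0.864 ± 0.0511 TPM (SD, n = 2), and 3 keratins were called lower without PC9 replicate 2 or without PC9-AMG replicate 1.

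Large glycoproteins moved in opposite directions. MUC4, a membrane mucin that binds ERBB2, rose from 10.1 and 10.6 to 61.9 and 60.5 TPM (log2 2.45, limma adjusted p = 3.84e-06). MUC1, another membrane mucin, fell from 30.8 and 27.3 to 16.3 and 14.7 TPM, CEACAM5 from 15.4 and 15.3 to 3.76 and 3.24 TPM and CEACAM6 from 602 and 589.8 to 355 and 304 TPM. The CEACAM genes lie on chromosome 19 in a stretch with a median of 0.42. L1CAM, a neural adhesion molecule, rose from 37.3 and 37.9 to 111 and 108 TPM (log2 1.52, limma adjusted p = 1.11e-05).

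ITGA5, the fibronectin receptor chain, rose from 21.9 ± 0.106 to 45.4 ± 1.24 TPM and ITGA2, a collagen receptor chain, from 85.1 ± 3.32 to 139.5 ± 29.5 TPM, while ITGA6, a laminin receptor chain, fell from 397 ± 0.465 to 265 ± 35.2 TPM and ITGB1, the common beta chain, from 502 ± 12.6 to 359 ± 28.8 TPM (SD, n = 2). With the regional median removed ITGB1 did not pass (limma adjusted p = 0.0549). The type VI collagen chains COL6A1 and COL6A2 rose from 51.3 ± 0.0805 to 88.7 ± 2.37 TPM and from 19.8 ± 0.414 to 40.4 ± 2.68 TPM. COL8A1 fell from 6.92 ± 0.249 to 0.973 ± 0.174 TPM and LAMA3, a chain of epithelial laminin, from 106 ± 2.73 to 63.6 ± 6.25 TPM. Plasminogen activation genes rose, PLAU (urokinase) from 208 and 209 to 382 and 341 TPM, its receptor PLAUR from 42.1 and 41.1 to 83.5 and 85 TPM, and PLAT from 39.8 and 38.8 to 74.8 and 70.0 TPM. The PLAU, PLAUR and PLAT libraries of PC9-AMG all lay above those of PC9. MMP28 and MMP14, matrix metalloproteinases, fell from 2.99 ± 0.608 to 0.497 ± 0.255 TPM and, in this order, from 16.9 ± 0.309 to 9.14 ± 0.548 TPM. Over the lists, 4 of 14 integrins rose and 5 fell, 15 of 36 matrix genes rose and 9 fell, and 14 of 37 genes of proteases and their inhibitors rose and 18 fell, where 28.2% of all genes rose and 28.1% fell. The integrin counts are near those shares.

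DNA replication genes fell as a group, and by amounts under 2-fold in all but 1 of those called. The list of 43 had 28 falls, 4 rises and 11 genes not called, with a median of -0.27, where 28.1% of all genes fell. PCNA, the sliding clamp, was at 703 and 729.9 TPM in PC9 and 342 and 362 TPM in PC9-AMG (log2 -1.02, limma adjusted p = 4.77e-06). PCNA lies on chromosome 20 in a run of 25 genes below 0 with a median of -0.50, and POLE2 lies in a lower stretch of chromosome 14 with a median of -0.37. GINS2, of the replicative helicase, fell from 96.9 and 97.3 to 49.2 and 55.6 TPM, and POLE2, a polymerase subunit, from 19.2 and 18.7 to 7.94 and 10.8 TPM. Of the 28 members that fell, 4 lay in stretches selected as lower, and with the median of each stretch removed 29 were called lower. The helicase subunits MCM2 to MCM7 fell, for example MCM6 from 89.7 and 88.4 to 61.8 and 63.4 TPM and MCM5 from 148 and 147 to 104 and 113 TPM. TYMS, thymidylate synthase, fell from 329.9 ± 3.06 to 233 ± 0.757 TPM (SD, n = 2), RRM2, of ribonucleotide reductase, did not pass at 212 ± 9.45 against 197 ± 11.1 TPM, and POLD1 rose from 46.4 ± 0.189 to 63.1 ± 3.27 TPM. POLD1 lies on chromosome 19 in a stretch with a median of 0.47, and with that median removed its value turned to -0.036 (limma adjusted p = 0.730). Without 1 library, 24 to 28 members were called lower, and 2 in place of 4 were called higher without PC9 replicate 1, PC9 replicate 2 or PC9-AMG replicate 2. In PC9-BrM4 the list's median against PC9 was 0.053, and 32 of 43 members were lower in PC9-AMG than in PC9-BrM4 by limma's test of the difference.

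Mitotic genes were mostly not called or lower. The list of 39 had 16 falls, 5 rises and 18 genes not called (median -0.076), where 28.1% of all genes fell and 28.2% rose. The proliferation antigen MKI67 did not pass at 97.9 and 95.6 TPM against 105 and 101 TPM, and neither did the spindle kinase AURKA at 142 and 138 TPM against 136 and 135 TPM. CDC20, an activator of mitotic exit, rose from 274 and 275 to 399.8 and 419 TPM, and TOP2A, a topoisomerase, fell from 213 and 214 to 149 and 138 TPM. CDC20 lies on chromosome 1 in a stretch with a median of 0.43. With that median removed its log2 fold change of 0.57 became 0.14. Of the 5 members that rose, 3 lay in stretches selected as higher.

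Genes of growth arrest rose more often than they fell. CDKN1A (p21), an inhibitor of cyclin-dependent kinases, was at 26.9 and 30.2 TPM in PC9 and 71 and 62.1 TPM in PC9-AMG (log2 1.19, limma adjusted p = 3.12e-05). GADD45A, a growth arrest protein, was at 59.2 and 57.4 TPM against 225 and 207 TPM, and the stress kinase PLK3 at 10.1 and 10.5 TPM against 38 and 31.5 TPM. The ubiquitin ligase MDM2 did not pass at 38 and 36.2 TPM against 39 and 34.2 TPM. Several of the list's members that rose, among them GADD45A, SESN2, TNFRSF10B and PMAIP1, are also known ATF4 or CHOP targets. Of 28 members 14 rose and 4 fell, with 2 called lower without PC9 replicate 1. Within the BCL2 family, the death inducers BBC3 (PUMA) and PMAIP1 (NOXA) rose from 4.33 ± 0.123 to 12.4 ± 1.41 TPM and from 22.8 ± 0.173 to 39.3 ± 6.03 TPM, and 7 of 17 members rose and 2 fell, 1 of them without PC9 replicate 2 or without PC9-AMG replicate 1.

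Genes of intraflagellar transport and of the cilium base fell with few exceptions. The list of 36 had 28 falls, 1 (IFT46) rise and 7 genes not called, with a median of -0.43 against -0.0054 over all genes. These proteins carry cargo along the axoneme of the primary cilium. IFT43 was at 132 and 133 TPM in PC9 and 36.6 and 37.3 TPM in PC9-AMG. It lies on chromosome 14 in a run of 28 genes below 0 with a median of -1.12. The other members are spread over many chromosomes, and 2 of the 28 that fell lay in lower stretches. IFT172 fell from 10.1 and 9.14 to 4.69 and 4.38 TPM, IFT88 from 13.9 and 12.5 to 7.63 and 6.74 TPM and WDR19 (IFT144) from 12.5 and 12.8 to 6.85 and 6.96 TPM. IFT46 rose from 26.1 ± 1.59 to 31.3 ± 0.575 TPM (SD, n = 2), a call that was lost without PC9 replicate 2 or without PC9-AMG replicate 1. With the regional median removed the list's median was -0.36 and 26 members were called lower, and 24 to 28 were without 1 library. The list's median in PC9-BrM4 against PC9 was -0.26, and 14 members were lower and 3 higher in PC9-AMG than in PC9-BrM4.

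**Figure D4:**
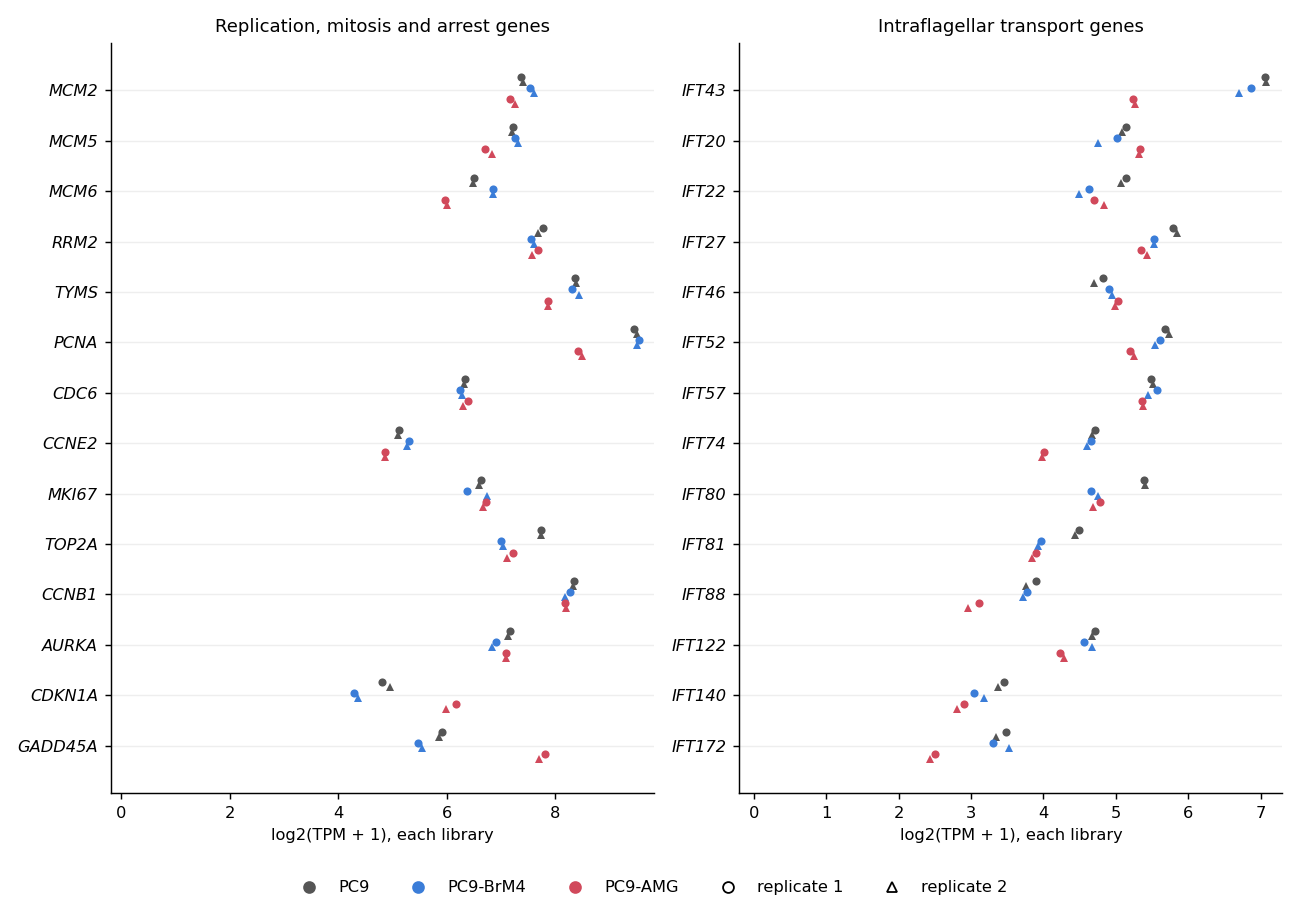
Levels of 14 replication, mitosis and growth arrest genes (left) and 14 intraflagellar transport genes (right), as log2(TPM + 1) in each library. PC9 is grey, PC9-BrM4 blue and PC9-AMG red, with circles for replicate 1 and triangles for replicate 2. PCNA and IFT43 lie to the left in PC9-AMG, and CDKN1A and GADD45A to the right.

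Ribosomal protein genes of the cytosol were lower by small amounts. Of 79 members 42 fell and 6 rose, with a median of -0.14, and none changed 2-fold. After quantile normalization 14 were called higher. RPL3 fell from 2131 and 2162 to 1661 and 1728 TPM. 5 of the 6 that rose lay in stretches selected as higher, and 0 were called higher with the regional median removed. These genes have many processed copies, so their values are uncertain, and 29 to 34 were called lower without 1 library, while 3 were called higher without PC9-AMG replicate 2. Mitochondrial ribosomal proteins had 25 rises and 24 falls among 76, and nuclear-encoded respiratory chain genes 17 and 25 among 68, shares near the 28.2% and 28.1% of all genes. With the regional median removed, 15 mitochondrial ribosomal protein genes were called lower. For the respiratory chain the rises numbered 10 without PC9 replicate 1 and 11 without PC9-AMG replicate 2, and the falls 14 without PC9-AMG replicate 1.

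Cancer-testis antigens, normally restricted to germ cells, rose among the few that were detected. Of 48 listed genes 14 were tested, and 11 rose while 1 (SPANXA1) fell. XAGE2 was at 0.766 and 0 TPM in PC9 and 28.5 and 30.8 TPM in PC9-AMG, MAGEA4 at 0.165 and 0.548 TPM against 20.4 and 19.8 TPM, and MAGEC2 at 0.977 and 1.08 TPM against 9.24 and 9.7 TPM. SPANXB1 rose from 22.7 and 21.1 to 171 and 169 TPM, and its relative SPANXA1 fell from 8.7 and 9.4 to 6.71 and 3.98 TPM. MAGEA3, already abundant in PC9, rose from 278 ± 3.39 to 329.9 ± 12 TPM (SD, n = 2), and SPANXA1 was not called without PC9 replicate 2. A gene near 0 in PC9 passed the filter only if it was high in PC9-AMG, so the count is not a share of the family, and the members have near-identical copies.

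Lists of developmental signals had shares of rises and falls near those of all genes (28.2% and 28.1%). In the TGF-beta list 9 of 34 members rose and 9 fell. The BMP target genes SMAD6 and ID1 fell from 4.62 and 3.04 to 0.716 and 0.776 TPM and, in this order, from 69.5 and 69.3 to 41.6 and 44.8 TPM, together with the ligand BMP4, from 93.6 and 93.9 to 42.8 and 48.5 TPM. NOG, an inhibitor of BMP ligands, rose from 12.8 and 11.9 to 32.5 and 29 TPM. BMP7 was at 0.0951 and 0.0776 TPM in PC9 and 1.99 and 1.87 TPM in PC9-AMG. Among Wnt genes 12 of 36 rose and 12 fell, and 6 rose with the filter at 5 TPM. The secreted Wnt inhibitor SFRP1 fell from 20.7 ± 0.944 to 8.43 ± 1.26 TPM, as did WNT5A, a ligand, from 65.3 ± 2.64 to 36.3 ± 0.793 TPM (SD, n = 2).

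In glycolysis 15 of 39 genes rose and 7 fell (median 0.025), with 4 called lower without PC9 replicate 2. The neuronal-type glucose transporter SLC2A3 was at 4.3 and 4.52 TPM in PC9 and 23.8 and 22.5 TPM in PC9-AMG, and the lactate exporter SLC16A3 at 171 and 177 TPM against 369 and 364 TPM. LDHA, lactate dehydrogenase, fell from 2456 and 2425 to 1878 and 1805 TPM, and GAPDH did not pass at 11720.0 and 11701 TPM against 11609 and 12226 TPM. The carbonic anhydrase CA9, a marker of hypoxia, did not pass at 3.72 ± 0.784 against 3.38 ± 1.1 TPM (SD, n = 2). In the S100 list, which also holds annexins and S100PBP, 5 of 15 members rose and 6 fell (median -0.0058), against 28.2% and 28.1% of all genes. S100A9, a subunit of calprotectin, rose from 3.62 and 2.21 to 18.4 and 18.9 TPM, and S100A1, listed at 0 in PC9 replicates 1 and 2, had 1.09 and 1.58 TPM in PC9-AMG. S100A1 passed the filter only through its PC9-AMG libraries, so only a rise was possible. S100A6, an abundant member, fell from 2140.1 and 2190.2 to 1628 and 1606 TPM.

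Genes that changed together were often neighbours. In 26 of 289 stretches of 10 Mb with at least 10 tested genes, at least 80% of the genes lay on 1 side of 0 and the median was at least 0.3 from that of all genes. Lower stretches numbered 19, on chromosomes 3, 4, 5, 7, 10, 13, 14, 16 and 20, and higher ones 7, on chromosomes 1, 3, 17 and 19. They held 63 (26.6%) of the 237 genes that fell at least 2-fold, against 4.04% of tested genes in the lower stretches, and 76 (19.1%) of the 397 that rose at least 2-fold, against 5.82% in the higher stretches. Since the genes in these stretches define them, the shares are a description.

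The strongest stretch was chromosome 14 from 70 to 80 Mb (hg38), where 48 of 70 genes fell and 1 rose, with a median of -0.90. SAMD15 and IFT43 led it. On chromosome 10 from 0 to 40 Mb 4 stretches in a row were lower, with medians of -0.34, -0.54, -0.62 and -0.33, and on chromosome 13 from 20 to 60 Mb another 4, with -0.44, -0.43, -0.42 and -0.35. Over all of chromosome 13, 52.8% of 235 tested genes fell and 10.2% rose. Chromosome 19 from 40 to 60 Mb was higher, with 160 of 237 and 133 of 177 genes called higher, and 54.3% of the chromosome's 999 tested genes rose. The APOE, PSG5, RELB and PPP1R15A genes above lie in the first of these stretches, each with a log2 rise larger than its median of 0.42.

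Runs of consecutive tested genes on 1 side of 0 showed the borders more closely. The longest held 50 genes on chromosome 1, ending at FOXJ3 at 42.3 Mb, of which 46 were called, with a median of 0.64 in PC9-AMG. The median of these 50 genes in PC9-BrM4 against PC9 was 0.28. A run of 35 genes on chromosome 19 from EIF3K to AKT2 had medians of 0.38 and 0.031 in the same order, and a run of 33 genes on chromosome 14 from ACOT1 to BATF had -0.92 and -0.069. On chromosome 5 a run of 26 genes from DROSHA to LIFR had a median of -0.55, and on chromosome 10 a run of 25 from CASC10 to WAC -0.62. The cell lines share their PC9 controls in these pairs of values, and copy number was not measured, so its part in the stretches was not tested.

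**Figure D5:**
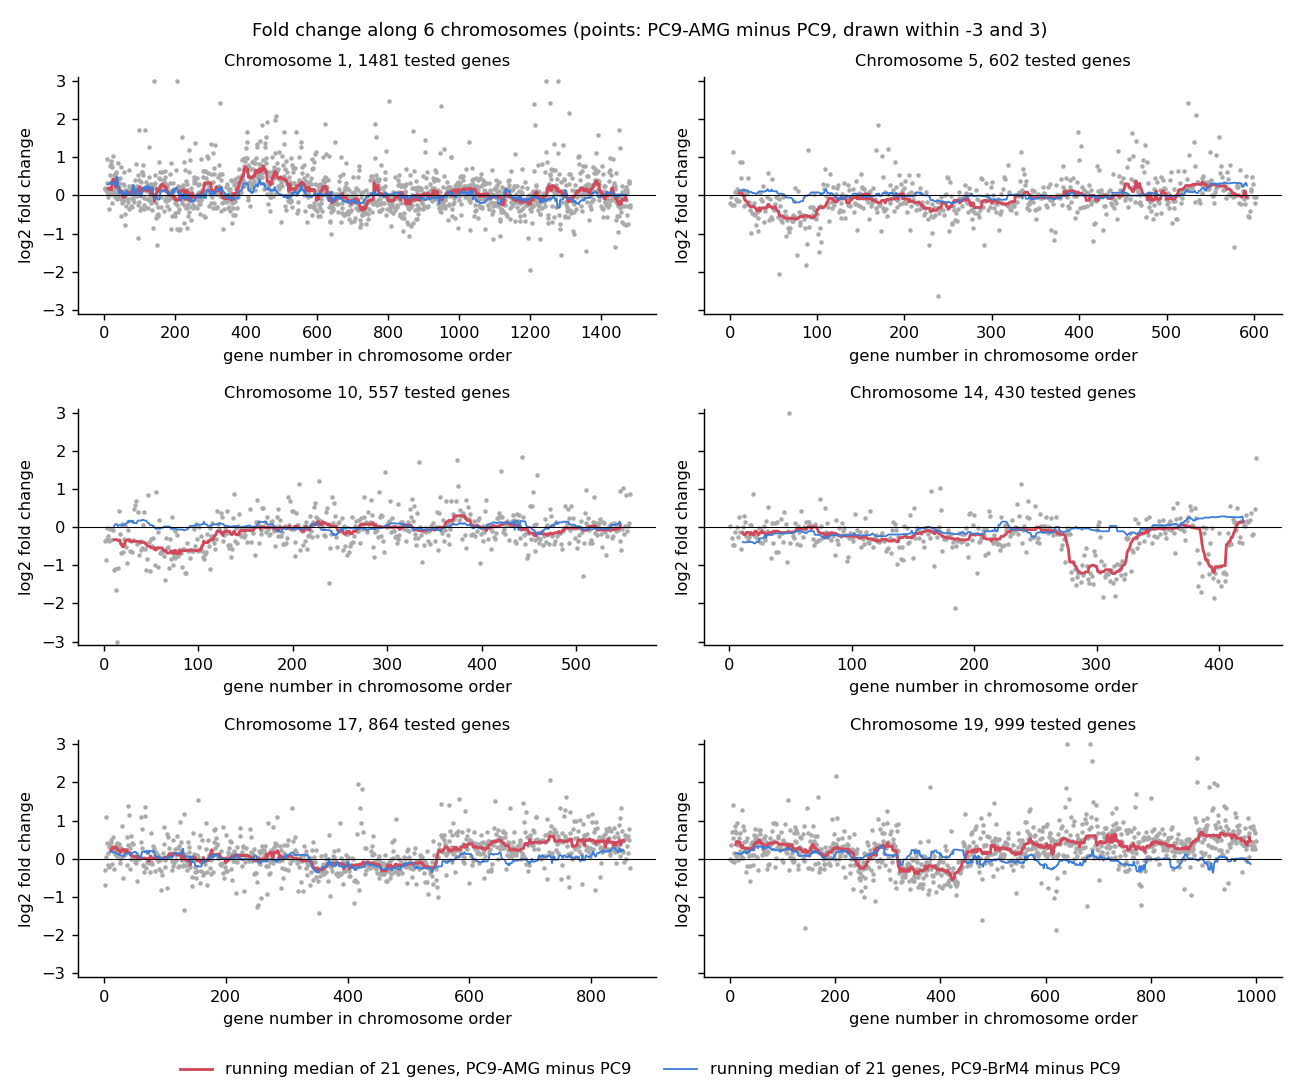
Log2 fold change of PC9-AMG against PC9 (grey points) for tested genes in order along chromosomes 1, 5, 10, 14, 17 and 19, drawn within -3 and 3. The red line is the running median of 21 genes for PC9-AMG and the blue line that for PC9-BrM4 against PC9. The red line leaves 0 in blocks, as on chromosome 14 and over the second part of chromosome 19.

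PC9-BrM4 gave another reference line. PC9-AMG differed from it in 7856 genes (56.1%) by limma's test. OLR1 stood at 7.9 and 6.95 TPM in PC9-BrM4, a log2 difference of 4.23 (limma adjusted p = 1.54e-07), and HSP90AA1 at 5841 and 5955 TPM, a log2 difference of -1.92 (limma adjusted p = 1.54e-07). NUPR1 reached 38.6 and 30.3 TPM in PC9-BrM4, and the difference of -0.12 from PC9-AMG did not pass (limma adjusted p = 0.408). CPVL was at 66.3 and 59.7 TPM in PC9-BrM4, above PC9-AMG by log2 1.87. CEACAM5 was listed at 0 and 0.0426 TPM there, below PC9-AMG. So OLR1 and HSP90AA1 separated PC9-AMG from both other lines, while CPVL and CEACAM5 lay between PC9 and PC9-BrM4 in PC9-AMG.

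Markers of other cell types were mostly near 0. Of 16 leukocyte markers 1 reached 1 TPM in each PC9 library and 4 and 3 in the PC9-AMG libraries, with sums of 51.6 to 51.7 TPM and 49.9 to 51.1 TPM, most of it from the lysosomal gene CD68, which carcinoma cells also express. PTPRC (CD45), the defining leukocyte gene, was at 0.133 and 0.111 TPM in PC9 and 0.141 and 0.15 TPM in PC9-AMG. ITGAM and CSF1R, myeloid genes, rose from 0.349 and 0.595 to 3.98 and 4.13 TPM and from 0.532 and 0.722 to 4.25 and 3.81 TPM. Fibroblast markers summed to 6.89 and 7.06 TPM in PC9 and 16.4 and 16.7 TPM in PC9-AMG, with COL1A1 rising from 4.77 and 5.02 to 14.4 and 14.8 TPM and 8 of 12 markers at 0 in each library of the 2 lines. Endothelial markers summed to 23.3 and 23.4 TPM and to 23.8 and 24.8 TPM, and glial markers to 45.8 and 47.0 TPM and to 57.3 and 57.5 TPM. The part of other cells in the changes above was not tested beyond these sums.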

How the data were processed

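RNA of 3 cell lines with 2 libraries each was extracted with TRIzol and made into stranded mRNA libraries, per the labels' protocols. Tools named in the submitters' processing notes are HISAT2 2.1.0, StringTie 1.3.4d and bcl2fastq, on build hg38; their roles, the strand setting and the annotation release were not stated there. The authors deposited per-library tables of TPM, FPKM and mean coverage per gene model. Lines of 1 gene identifier were summed. TPM was the unit tested, FPKM an alternative, and the deposited coverage signal divided by FPKM gave the aligned gigabases. TPM keeps no read counts, so no counting interval is given. The tables assigned to PC9-AMG by the sample records are named EMG, and 6 columns of a table of the whole series were not used.

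limma 3.58.1 in R 4.3.3 was fitted with a mean-variance trend to log2(TPM + 1) of all 6 libraries, with 1 mean per line, and p-values were adjusted by the Benjamini-Hochberg method over the 13992 genes with at least 1 TPM in 2 of the 4 PC9 and PC9-AMG libraries. The procedure was tested on simulated data. Text genes are the 15 called genes that rose most and the 15 that fell most, given a mean of 10 TPM or more in the higher line and no overlap, up to 4 called genes per list and direction, uncalled defining members, a fixed set (OLR1, EGFR, MET and others) and the top genes of each selected stretch. Of the 233 genes given with values, 65 fall outside the size rule: 26 are uncalled members, and 39 called members or neighbours were chosen as familiar genes after their values were seen. Some genes that the rule names are not reported here. The members and the 49 lists were chosen with earlier results of these data known. A regional median is the median log2 fold change of a gene's 10 Mb stretch. Promoters came from RefSeq (GRCh38.p14), matched by symbol. Alternatives were other pseudocounts, filters, scalings, FPKM, fewer libraries, no trend, the replicate block, and the regional median removed.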

Additional observations from a re-analysis of the deposited data

Results flagged for a closer look

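Genes whose difference from PC9 had opposite signs in PC9-AMG and PC9-BrM4, with at least 2-fold in both, are given here as values. The difference between the sublines was tested by limma's contrast of PC9-AMG with PC9-BrM4, and both comparisons share the PC9 libraries. MUC4 was at 1.07 and 1.51 TPM in PC9-BrM4, a log2 difference PC9-AMG minus PC9-BrM4 of 4.77 (limma adjusted p = 1.65e-07). For C4BPB, at 0 and 0.704 TPM in PC9-BrM4, the log2 difference was 4.55 (limma adjusted p = 6.35e-06). For IL11, at 4.04 and 4.68 TPM, it was 3.15 (limma adjusted p = 6.13e-06). TLR4 was at 12.4 and 13.4 TPM in PC9-BrM4, which gave -3.52 (limma adjusted p = 4.19e-07), and SFRP1 at 88.9 and 97.2 TPM, which gave -3.32 (limma adjusted p = 5.39e-07). The aldolase ALDOC, a glycolytic enzyme, was at 15.3 and 15.7 TPM in PC9, 3.38 and 3.32 TPM in PC9-BrM4 and 34.8 and 33.4 TPM in PC9-AMG, a log2 difference of 3.01 between the sublines (limma adjusted p = 2.11e-07).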

How the results depend on the processing

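The number of genes called in PC9-AMG against PC9 stayed within 1.5 times of 7878 under all alternatives run, at 6056 to 8296, and in PC9-AMG against PC9-BrM4 at 6415 to 7832. Counts of genes that rose at least 2-fold were 602 with log2(TPM + 0.1), 146 with log2(TPM + 5) and 224 with FPKM, and of genes that fell at least 2-fold 427, 64 and 136, in place of 397 and 237. Leaving out 1 of the PC9 and PC9-AMG libraries gave 6056 to 6472 genes called, 365 to 421 that rose at least 2-fold and 228 to 252 that fell. Without PC9-BrM4 replicate 1 or 2, 8132 and 8133 genes were called. Leaving out a PC9-BrM4 library, and the block for PC9-AMG against PC9-BrM4, were chosen after seeing the data. Deviations of same-numbered libraries correlated across genes at -0.033, -0.069 and -0.073, so no strong shared deviation by number was seen. With 2 libraries per line this cannot tell whether the numbers pair the samples, which the labels do not say. The replicate block gave 7480 genes called, 3771 higher and 3709 lower, 398 and 239 of them at least 2-fold, and 7517 against PC9-BrM4. With the regional median removed the log2 fold change had the other sign for these genes: ACACA 0.00783, B2M 0.0142, EIF2AK1 -0.19, FOS 0.28, HSP90AB1 -0.0523, HSPA1A -0.12, HSPA1B -0.0871, HSPH1 0.0283, IDI1 0.0958, MDM2 0.0904, MVK -0.00179, POLD1 -0.0364, SPRY2 0.19. After quantile normalization it did for B2M 0.056, EIF2AK1 -0.0152, NFE2L2 -0.0152. After median centring it did for EPCAM -0.00446. With FPKM it did for EPCAM -0.00638. Leaving out 1 of the PC9 and PC9-AMG libraries at a time gave log2 ranges that crossed 0 for ATF6 (-0.15 to 0.0498), B2M (-0.0248 to 0.0224), BTC (-0.0768 to 0.35), CA9 (-0.38 to 0.14), EPCAM (-0.00484 to 0.0236), GAPDH (-0.0126 to 0.0621), HMGCS1 (-0.0787 to 0.16), HSPA1A (-0.0371 to 0.0819), HSPA1B (-0.00294 to 0.12), MDM2 (-0.11 to 0.0711), NFE2L2 (-0.0454 to 0.089), SPRY4 (-0.0558 to 0.15). Of these genes FOS, HSPH1, IDI1 and POLD1 were called. Counts of list members that moved by over 1.5 times were these. With FPKM, they were fatty acid synthesis and desaturation 1 in place of 0 lower. With the filter at 5 TPM, they were BCL2 family 1 in place of 2 lower, complement components and regulators 3 in place of 5 higher, cytokines and chemokines 1 in place of 3 lower, intraflagellar transport and cilium base 2 in place of 1 higher, lung and foregut lineage 1 in place of 2 lower, Wnt ligands, receptors and feedback 6 in place of 12 higher. After median centring, they were keratins 3 in place of 5 lower. With no filter, they were cancer-testis antigens 0 in place of 1 lower, immediate early and AP-1 genes 1 in place of 2 lower. With no mean-variance trend, they were epithelial junctions and regulators 3 in place of 6 lower, fatty acid synthesis and desaturation 1 in place of 0 lower, keratins 3 in place of 5 lower. With only the 4 PC9 and PC9-AMG samples, they were intraflagellar transport and cilium base 2 in place of 1 higher. After quantile normalization, they were cytosolic ribosomal proteins 14 in place of 6 higher, DNA replication and nucleotide synthesis 2 in place of 4 higher, fatty acid synthesis and desaturation 1 in place of 0 lower. With the regional median removed, they were cytosolic aminoacyl-tRNA synthetases 1 in place of 5 lower, cytosolic and mitochondrial heat shock proteins 1 in place of 3 lower, cytosolic ribosomal proteins 0 in place of 6 higher, endoplasmic reticulum chaperones and unfolded protein sensors 1 in place of 0 lower, epithelial junctions and regulators 3 in place of 6 lower, ERK feedback genes 3 in place of 5 lower, fatty acid synthesis and desaturation 2 in place of 0 lower, immediate early and AP-1 genes 1 in place of 2 lower, intraflagellar transport and cilium base 0 in place of 1 higher, keratins 3 in place of 5 lower, ketone body and fatty acid breakdown 3 in place of 5 higher, lung and foregut lineage 1 in place of 2 higher, lung and foregut lineage 1 in place of 2 lower, mevalonate and cholesterol enzymes 1 in place of 2 lower, MHC class I presentation 1 in place of 3 lower, mitochondrial ribosomal proteins 15 in place of 24 lower, mitosis and spindle 3 in place of 5 higher, neuronal and neuroendocrine markers 5 in place of 3 higher. With the replicate block, they were intraflagellar transport and cilium base 2 in place of 1 higher. The calls of MET, SPANXA1 and XBP1 were lost with no filter, and that of MET also with no mean-variance trend and with the replicate block (limma adjusted p = 0.0523). The causes were not tested. With 2 libraries per line the spread rests on 3 residual degrees of freedom shared by the lines, and TPM gives no depth per gene.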
